A study of Mus musculus with 2 samples.

Results

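The cluster of Mir17hg, also known as the miR-17 to miR-92a cluster, is a group of 6 microRNA hairpins that are cut from 1 long noncoding RNA. Its members were taken by name from the gene rows of the deposited tables: Mir17, Mir18, Mir19a, Mir20a, Mir19b-1 and Mir92-1, which are 6 of 1973 rows. Small RNA of whole mouse liver at embryonic day 16.5 was sequenced in 2 biological replicates of 1 group, so there was no contrast between conditions. Each replicate was a pool of livers from healthy B6NCrl embryos of both sexes; that of replicate 2 came from 41 embryos, and no number is stated for replicate 1. The RNA came from the unsorted organ, so fewer cells of a type and less RNA per cell cannot be told apart.

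MicroRNAs guide the repression of messenger RNAs, and the seed, bases 2 to 8 of the mature strand, does most of the pairing with the target. The Mir17hg transcript is activated by Myc and E2F factors and is known for promoting proliferation and survival; mice that lack it die around birth, with small lungs, heart defects and a block in early B cell development. Its members fall into 4 seed groups, and mammals carry a pair of paralogous clusters, Mir106b-25 and Mir106a-363. Mir106a-363 has all 4 seeds, and Mir106b-25 has those of Mir17 and Mir92-1. The liver at this stage forms blood cells while it grows into a metabolic organ.

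The guide arm of each member, the strand usually kept in the silencing complex, is shown in genomic order because the seeds (in capitals) and the few bases that set the members apart bear on every comparison that follows. The sequences are those of RefSeq on GRCm38.p6, where all 6 hairpins matched by symbol.
miR-17-5p (Mir17): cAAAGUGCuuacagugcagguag
miR-18a-5p (Mir18): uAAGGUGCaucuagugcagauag
miR-19a-3p (Mir19a): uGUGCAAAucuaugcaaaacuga
miR-20a-5p (Mir20a): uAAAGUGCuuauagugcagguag
miR-19b-3p (Mir19b-1): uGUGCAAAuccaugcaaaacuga
miR-92a-3p (Mir92-1): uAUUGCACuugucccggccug

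Mir17 and Mir20a share a seed, as do Mir19a and Mir19b-1, while Mir18 and Mir92-1 each have a seed that no other member has. With positions counted from 1 at the 5′ end, miR-20a-5p differs from miR-17-5p by C1U and C12U, both outside the seed. miR-18a-5p differs from miR-17-5p at 6 of 23 bases, of which A4G is the change within the seed. miR-19b-3p differs from miR-19a-3p by the single substitution U11C.

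All 6 hairpins lie on the plus strand of chromosome 14 (mm10) within exon 2 of Mir17hg, a lincRNA gene of 3849 bases with 2 exons at chr14:115042879-115046727. They span 836 bases, with gaps of 35 to 96 bases between neighbours. In order, Mir17 (ENSMUSG00000065508.1) is at chr14:115043671-115043754, Mir18 (ENSMUSG00000065403.1) at chr14:115043851-115043946 and Mir19a (ENSMUSG00000065416.1) at chr14:115044000-115044081. Mir20a (ENSMUSG00000065442.1) follows at chr14:115044157-115044263, Mir19b-1 (ENSMUSG00000076256.1) at chr14:115044305-115044391 and Mir92-1 (ENSMUSG00000076062.1) at chr14:115044427-115044506. The hairpins are 80 to 107 bases long, and their GC content is 43.7% to 47.5%. The guide arms differ more in GC content, from 34.8% for miR-19a-3p to 57.1% for miR-92a-3p.

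The tables held 5102289 sense-strand counts in gene rows in replicate 2 and 5930074 in replicate 1. Mir122, the microRNA that defines hepatocytes, was the most abundant row. It was at 214555 CPM (the count scaled by the sense-strand total of its own library) in replicate 2, against 213274 CPM in replicate 1. Counts were made per hairpin, so the 5′ and 3′ arms of a member are not separated. Reads that matched several places in the genome (28.2% of all tallied reads in replicate 2, 28.1% in replicate 1) are in no gene row. Levels are per hairpin and not divided by its length, because the libraries were made from RNA with a size range below 30 and the mature arms have 21 to 23 bases. The labels call the libraries biological replicates, and all SDs are over n = 2.

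The cluster as a whole was well represented. Its 6 hairpins held 201924 counts in replicate 2 and 250948 in replicate 1. In replicate 2 this was 3.96% of the sense-strand counts (exact 95% Clopper-Pearson limits 3.94% to 3.97%), against 4.23% in replicate 1 (4.22% to 4.25%), or 4.09% ± 0.19 (SD, n = 2). The intervals do not overlap, but they hold for counting error alone and leave out variation between pools and library preparations. Any PCR duplicates counted as separate reads would make them too narrow even for that error. By summed counts, the cluster on chromosome 14 stood above both paralogous clusters. Mir106b-25 (3 hairpins) held 1.79% ± 0.23 and Mir106a-363 (6 hairpins) held 0.0509% ± 0.0011. The ranges of the 3 sums over the libraries do not overlap. These sums are not divided by the number of hairpins, and multimapping reads are in none of them. An exact two-sided sign-flip test over 2 libraries cannot give a p below 0.5, so no p is given for this order or for any ratio between hairpins.

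Along the transcript the levels followed no gradient. Mir17, the first hairpin, whose microRNA represses the cell cycle inhibitor Cdkn1a and the pro-apoptotic gene Bcl2l11, was the highest member, at 20690 CPM (105568 counts) in replicate 2 and 23784 CPM (141038 counts) in replicate 1. Mir18, the second hairpin, whose microRNA represses genes of TGF-beta signalling, was at 4871 CPM (24852 counts) in replicate 2 and 4041 CPM (23961 counts) in replicate 1. Mir19a, the third, was at 75.7 CPM (386 counts) in replicate 2 and 57.8 CPM (343 counts) in replicate 1. Mir18 thus stood above its neighbour Mir19a by 64.3-fold in replicate 2 and by 69.8-fold in replicate 1.

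Past Mir19a the counts were high again. Mir20a, the fourth hairpin, with the seed of Mir17, was at 11155 CPM (56918 counts) in replicate 2 and 10658 CPM (63203 counts) in replicate 1. Mir19b-1, the fifth, with the seed of Mir19a, was the lowest member, at 11.0 CPM (56 counts) in replicate 2 and 11.6 CPM (69 counts) in replicate 1. Mir92-1, the last hairpin, whose microRNA is known as a brake on blood vessel growth, was at 2772 CPM (14144 counts) in replicate 2 and 3766 CPM (22334 counts) in replicate 1. Each of the low hairpins therefore lay between a pair of high ones, and both carry the miR-19 seed.

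**Figure D1:**
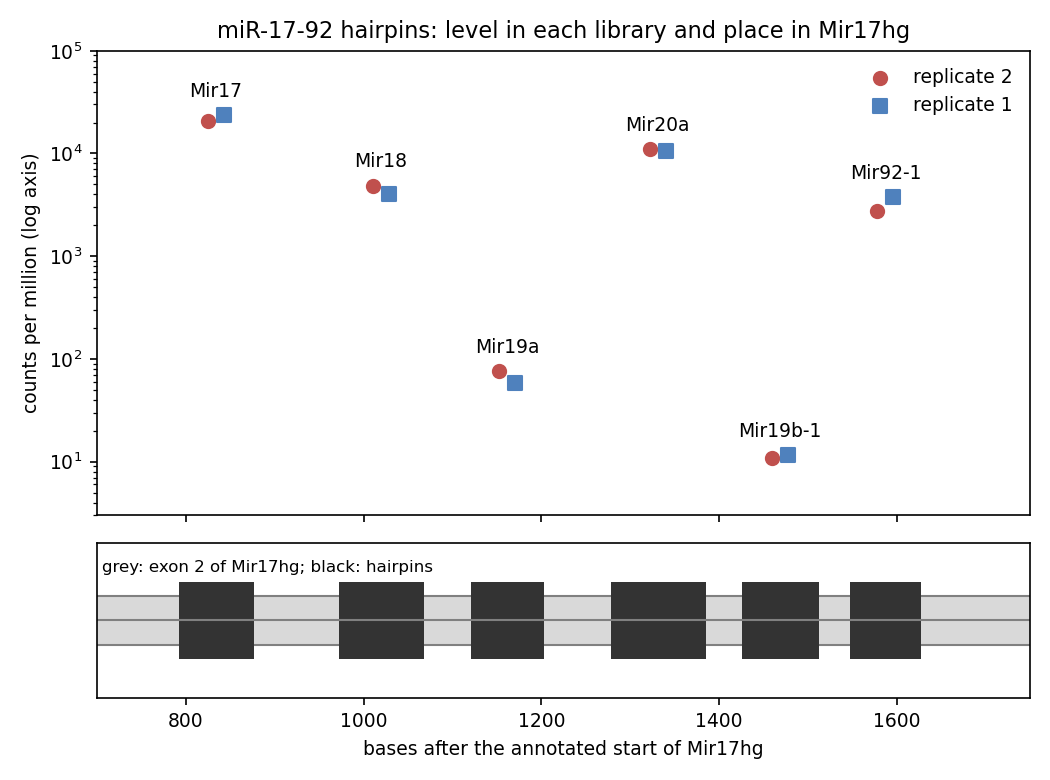
CPM of each hairpin of the cluster in the 2 libraries (circles, replicate 2; squares, replicate 1; log axis) above its place in exon 2 of Mir17hg, in bases after the annotated start of the gene. Mir17 and Mir20a lie at 10658 CPM or higher, and the miR-19 hairpins Mir19a and Mir19b-1 lie at 75.7 CPM or lower, between neighbours at 2772 CPM or higher.

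Ordered by mean level, the members ran Mir17 (22237 ± 2187 CPM), Mir20a (10907 ± 352 CPM), Mir18 (4456 ± 587 CPM), Mir92-1 (3269 ± 703 CPM), Mir19a (66.7 ± 12.6 CPM) and Mir19b-1 (11.3 ± 0.467 CPM). The ranges of neighbours in this order did not overlap between the 2 libraries, and the order was the same in both. The closest pair was Mir18 and Mir92-1, which stood 1.76-fold apart in replicate 2 and 1.07-fold apart in replicate 1. Among all 1973 rows Mir17 ranked 8, Mir20a 24, Mir18 42, Mir92-1 54, Mir19a 201 and Mir19b-1 273. The order is one of counts, and a bias in ligation, amplification or mapping that both libraries share is not covered by the SDs.

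The rows nearest to the members in mean level put these values into the scale of the liver profile. Mir17 lay between Mirlet7i (26376 ± 2591 CPM) and Mir322 (19579 ± 1064 CPM), and its range over the libraries overlapped neither. Mir20a lay between Mir379 (11657 ± 85.1 CPM), whose range was higher, and Mir93 (10347 ± 1612 CPM), whose range overlapped its own. Mir18, between Mir98 and Mir434, Mir92-1, between Mir130b and Mir423, Mir19a, between Mir331 and Mir34c, and Mir19b-1, between Mir181a-2 and Mir199a-2, could be ranked against neither neighbour. With 2 libraries the pattern of a gene is a single ratio, so no gene is named for a similar pattern.

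Within the transcript, Mir17 exceeded Mir20a by 1.85-fold in replicate 2 and by 2.23-fold in replicate 1 (log2 1.02 ± 0.19). It exceeded Mir18 by 4.25-fold in replicate 2 and by 5.89-fold in replicate 1 (log2 2.32 ± 0.33), and Mir92-1 by 7.46-fold in replicate 2 and by 6.31-fold in replicate 1 (log2 2.78 ± 0.17). Against the miR-19 hairpins the distance was of another order. Mir17 exceeded Mir19a by 273-fold in replicate 2 and by 411-fold in replicate 1 (log2 8.39 ± 0.42), although both come from the same exon.

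Expressed as a share of the 6-hairpin count, Mir17 made up 52.3% in replicate 2 (exact 95% limits 52.1% to 52.5%), against 56.2% in replicate 1 (56.0% to 56.4%). Mir20a made up 28.2% in replicate 2 and 25.2% in replicate 1. Mir18 made up 12.3% in replicate 2 and 9.55% in replicate 1. Mir92-1 made up 7.00% in replicate 2 and 8.90% in replicate 1. Together the miR-19 hairpins gave well under 1% of the count in either library, with Mir19a at 0.191% in replicate 2 and 0.137% in replicate 1. These shares leave out multimapping reads, which may take more from some members than from others, and the limits do not cover this.

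**Figure D2:**
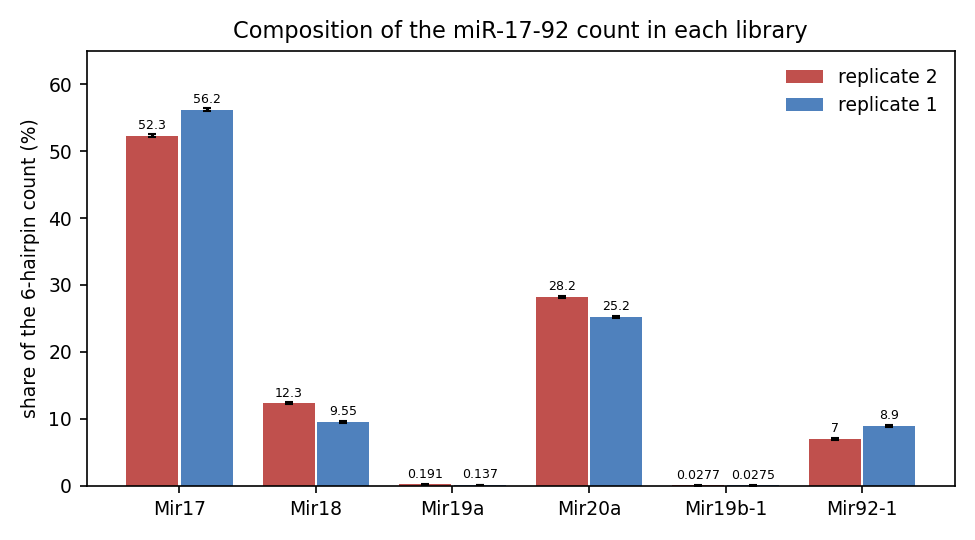
Share of the summed count of the 6 hairpins held by each hairpin, in percent, with 95% Clopper-Pearson intervals of counting error as bars, for replicate 2 and replicate 1. Mir17 holds 52.3% and 56.2%, and the shares of Mir19a and Mir19b-1 are close to 0 on this axis. Multimapping reads are left out.

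Sequence copies differ between the members. The guide arms of Mir17, Mir18, Mir19a and Mir20a were found in no other hairpin of the RefSeq table and in no GENCODE M21 transcript apart from their own hairpin and Mir17hg. The guide arms of Mir19b-1 and Mir92-1 each have an identical copy in the Mir106a-363 cluster of chromosome X, in Mir19b-2 and Mir92-2. A read that covers only such an arm matches both loci and belongs to the multimapping tally. The hairpins concerned are shown, with the shared arm in capitals, so that the bases around it can be compared. They lie at chr14:115044427-115044506 (plus strand) for Mir92-1, chrX:52741838-52741928 (minus strand) for Mir92-2, chr14:115044305-115044391 (plus strand) for Mir19b-1 and chrX:52741983-52742066 (minus strand) for Mir19b-2, on GRCm38.p6.
Mir92-1: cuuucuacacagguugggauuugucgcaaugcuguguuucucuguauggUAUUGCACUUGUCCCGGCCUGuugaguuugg
Mir92-2: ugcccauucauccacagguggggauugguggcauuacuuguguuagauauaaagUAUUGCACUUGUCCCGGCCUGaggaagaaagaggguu
Mir19b-1: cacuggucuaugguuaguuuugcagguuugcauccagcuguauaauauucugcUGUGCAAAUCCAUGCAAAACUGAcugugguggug
Mir19b-2: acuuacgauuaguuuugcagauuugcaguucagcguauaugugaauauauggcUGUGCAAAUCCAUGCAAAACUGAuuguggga

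In both pairs the hairpins part at the first base after the arm. Counted from the arm's 5′ end, with the chromosome 14 hairpin first, this difference is U22A for miR-92a and C24U for miR-19b. Reads that run past the arm, or that come from the opposite arm, can therefore still be assigned to a locus. The count does not tell how many did.

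Despite the shared arm, Mir92-1 kept 14144 counts in replicate 2 and 22334 in replicate 1, and Mir92-2 kept 625 in replicate 2 and 912 in replicate 1. Mir92-1 exceeded Mir92-2 by 22.6-fold in replicate 2 and by 24.5-fold in replicate 1. Mir19b-1 exceeded Mir19b-2 (22 counts in replicate 2, 30 in replicate 1) by 2.51-fold in replicate 2 and by 2.28-fold in replicate 1. Among the 87 rows with a mature arm that another hairpin also holds, Mir92-1 ranked 2 and Mir19b-1 ranked 31 by mean level. Of those 87 rows, 4 reached 1000 CPM in both libraries, against 74 of 829 rows with no such arm. At 10 CPM in both libraries it was 30 of 87 rows, against 217 of 829. The median of the mean levels was 1.26 CPM with such an arm and 0.378 CPM without. The highest mean level was 3567 CPM with such an arm and 58341 CPM without. The direction of the difference thus depended on the level at which the rows were compared. What part of the low count of Mir19b-1 lies in the multimapping tally was not tested, because that tally is not split by microRNA. Mir19a has no exact copy of this kind: 0 of the 65 words of 18 bases in its hairpin occur in another RefSeq hairpin, against 8 of 70 words in Mir19b-1 and 5 of 63 in Mir92-1. That search was for exact words, and miR-19a-3p differs from miR-19b-3p by 1 base. The mismatches allowed in mapping were not given in the sources used here, so reads of Mir19a may be in the multimapping tally too. The same limit holds for Mir17 and Mir106a, whose guide arms also differ by 1 base.

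Each seed of the cluster is also made at other loci, and the cluster's part of the counts differed between seeds. In the miR-17 seed group, Mir17 and Mir20a gave 66.7% of the family's counts in replicate 2 (exact 95% limits 66.6% to 66.9%), against 64.5% in replicate 1 (64.3% to 64.7%). The rest came almost wholly from the Mir106b-25 cluster on chromosome 5, with Mir93 at 9206 CPM in replicate 2 and at 11487 CPM in replicate 1, and Mir106b at 6391 CPM in replicate 2 and at 7228 CPM in replicate 1. The chromosome X hairpins Mir106a (142 ± 10.4 CPM) and Mir20b (108 ± 13.4 CPM) were far below. The guide arms of these relatives, shown because they share the seed of Mir17 at levels from about that of Mir20a down to 108 CPM, are the following.
miR-93-5p (Mir93): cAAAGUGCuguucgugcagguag
miR-106b-5p (Mir106b): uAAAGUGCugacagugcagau
miR-106a-5p (Mir106a): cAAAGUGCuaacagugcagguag
miR-20b-5p (Mir20b): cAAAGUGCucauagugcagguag

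The nearest sequence relatives were not the nearest in level. miR-106a-5p differs from miR-17-5p by U10A alone, and Mir17 exceeded Mir106a by 138-fold in replicate 2 and by 177-fold in replicate 1. miR-93-5p differs from miR-17-5p at 4 of 23 bases, and Mir93 was at the level of Mir20a: Mir20a stood 1.21-fold above it in replicate 2 and at 0.928 of it in replicate 1, with overlapping ranges. Mir17 exceeded Mir106b by 3.24-fold in replicate 2 and by 3.29-fold in replicate 1, so that this ratio varied little between the pools. Mir6383, which also carries the seed, had no count in either library, which allows up to 0.588 CPM in replicate 2 and up to 0.506 CPM in replicate 1 (3 counts).

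The other seeds came mostly from the chromosome 14 transcript. Mir18 gave 99.8% of the miR-18 seed in replicate 2 and 99.7% in replicate 1, and the remaining counts were those of Mir18b (60 in replicate 2, 69 in replicate 1). Mir19a and Mir19b-1 gave 95.3% of the miR-19 seed in replicate 2 (92.9% to 97.0%) and 93.2% in replicate 1 (90.5% to 95.4%), but of small families of 464 counts in replicate 2 and 442 in replicate 1. Mir92-1 gave 71.4% of the miR-92a seed in replicate 2 (70.8% to 72.1%) and 73.9% in replicate 1 (73.4% to 74.3%). Multimapping reads are in none of these sums, so the shares for miR-19 and miR-92a hold for reads with a single place in the genome.

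Within the miR-92a seed group, Mir25 of the Mir106b-25 cluster followed Mir92-1 at 629 CPM in replicate 2 and at 803 CPM in replicate 1. Mir92-1 exceeded it by 4.41-fold in replicate 2 and by 4.69-fold in replicate 1. Mir32 was at 250 ± 0.202 CPM, Mir363 at 104 ± 11.7 CPM and Mir92b at 13.0 ± 1.70 CPM. Mir367, a microRNA of pluripotent stem cells, had no count in either library.

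**Figure D3:**
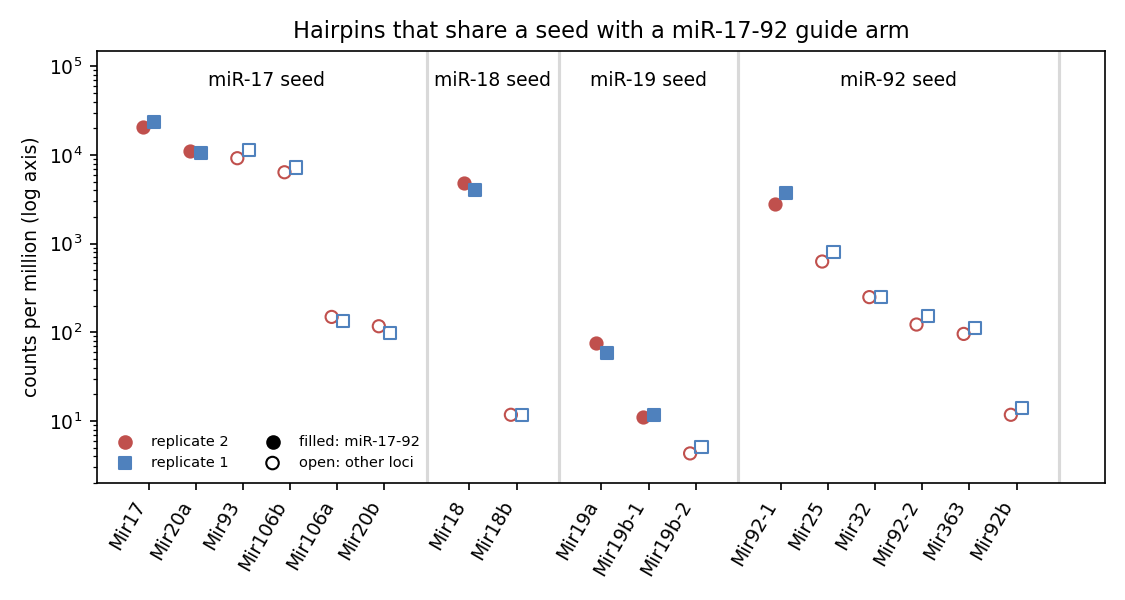
CPM (log axis) in replicate 2 (circles) and replicate 1 (squares) of every hairpin with a count whose mature arm has the seed of a guide arm of the cluster, grouped by seed. Filled symbols are hairpins of the chromosome 14 cluster, which lead each group; Mir93, an open symbol, reaches the level of Mir20a in the miR-17 group.

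The members did not shift together between the pools. In an exact conditional binomial test of the counts over all rows with at least 10 counts, 5 of 6 members differed between the libraries past an adjusted p of 0.05 (Benjamini-Hochberg). Of these 440 rows 44.5% passed, 17.5% higher and 27.0% lower in replicate 2, and the share depended on depth. Among the 82 rows with a mean of 1000 CPM or more 92.7% passed, and 4 of the members are such rows. Among the 358 rows with a lower mean, which include Mir19a and Mir19b-1, 33.5% passed. The test compares 2 libraries, not conditions. The median absolute log2 ratio was 0.24 over the members, against 0.27 over all rows tested, 0.21 over the 280 rows tested with a mean of 10 CPM or more, where all members lie, and 0.19 over those of 1000 CPM or more.

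Relative to replicate 1, replicate 2 held 1.21-fold more Mir18 (log2 0.27, counting SE 0.01, exact binomial adjusted p = 2.12e-93). Mir19a was 1.31-fold higher (log2 0.39, counting SE 0.11, exact binomial adjusted p = 0.000891), and Mir20a 1.05-fold higher (log2 0.07, counting SE 0.01, exact binomial adjusted p = 1.50e-14). Mir17 was lower in replicate 2 (log2 -0.20, counting SE 0.01, exact binomial adjusted p = 8.39e-257), as was Mir92-1 (log2 -0.44, counting SE 0.02, exact binomial adjusted p = 5.50e-181). Mir19b-1 had a log2 ratio of -0.08 with a counting SE of 0.26, and a difference was not detectable at its depth (exact binomial adjusted p = 0.894). The first and last hairpins were therefore lower in replicate 2 and the 3 others with a call were higher.

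A test that allows for spread beyond counting error called no member. With the common dispersion of all tested rows (a biological coefficient of variation of 22.9%), edgeR's exact test called 0 of 6 members, against 0.682% of all rows (3 of 440). The members' adjusted p was 1 in that test, and their unadjusted p-values ran from 0.335 to 1, with 0 under 0.05, against 23 of all rows. That dispersion was estimated from the same 2 libraries that the test compares, so the lack of a call does not show that the members are stable. Mir92-1, at a log2 ratio of -0.44, differed by more than the median absolute log2 ratio of 0.19 over rows of 1000 CPM or more. The coefficient of variation of the members over the libraries was lowest for Mir20a (3.22%) and highest for Mir92-1 (21.5%). With TMM or DESeq2 scaling 49.5% of all binomial calls were higher in replicate 2, against 39.3% with total counts, while the calls among members stayed at 3 higher and 2 lower.

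Ratios between members do not depend on the scaling of the libraries. Of the 15 pairs, the largest change was that of Mir19a over Mir92-1, which was higher in replicate 2 by 0.83 on the log2 scale (counting SE 0.11). Mir18 over Mir92-1 followed, at 1.76-fold in replicate 2 and 1.07-fold in replicate 1 (log2 difference 0.71, counting SE 0.02). Mir17 over Mir20a, the members with a common seed, changed by -0.27 (counting SE 0.01). Several hairpins with the seed of Mir92-1 were lower in replicate 2 as well: Mir92-2 had a log2 ratio of -0.33 (exact binomial adjusted p = 3.46e-05), Mir25 -0.35 (exact binomial adjusted p = 2.95e-26) and Mir363 -0.23 (exact binomial adjusted p = 0.0180), whereas Mir92b was at -0.27 (exact binomial adjusted p = 0.423) and Mir32 at 0.00 (exact binomial adjusted p = 1). In the miR-17 seed group Mir93 (-0.32) and Mir106b (-0.18) were lower in replicate 2 past the test and Mir20b (0.25) higher, with Mir106a at 0.15 (exact binomial adjusted p = 0.0825). Of all rows tested, 27.0% passed as lower and 17.5% as higher, and of those of 1000 CPM or more 92.7% passed. The calls hold for counting error alone, and edgeR's exact test called none of these hairpins. By their log2 ratios, hairpins with a common seed did not all move one way.

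MicroRNAs listed as markers of cell types were compared between the pools in the same way. Their calls stand beside 44.5% of all rows tested, and 92.7% of those of 1000 CPM or more, that passed the exact binomial test. None of these markers passed edgeR's exact test, where the lowest adjusted p among them was 0.0975, for Mir141. The summed level of the epithelial and biliary markers (5 of 5 higher in replicate 2 past the exact binomial test) was 6376 CPM in replicate 2, against 4266 CPM in replicate 1. The erythroid markers (2 of 3 higher, 1 lower past that test) summed to 27152 CPM in replicate 2, against 24071 CPM in replicate 1, and the hepatocyte markers (2 of 3 higher) to 220335 CPM in replicate 2, against 218419 CPM in replicate 1. The hematopoietic stem and progenitor markers (2 of 6 higher, 3 lower) had a log2 ratio of their sums, replicate 2 over replicate 1, of 0.03. Mir126a held the largest part of that sum, with 247693 of 436221 counts in replicate 2, and it is also the sole endothelial marker (log2 ratio 0.09, higher past the test). Among the others of that list, Mir130a was at 0.12, higher past the test, and Mir155 at 0.12 without a call. Mir99b was at -0.42, Mir125a at -0.14 and Mir99a at -0.08, all lower past the test. The log2 ratio of the sums was 0.06 for the leukocyte markers (1 of 4 higher) and 0.18 for the mesenchymal markers (2 of 3 higher, 1 lower). No marker in any of these lists was at 0. Their part in the differences between members was not tested.

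**Figure D4:**
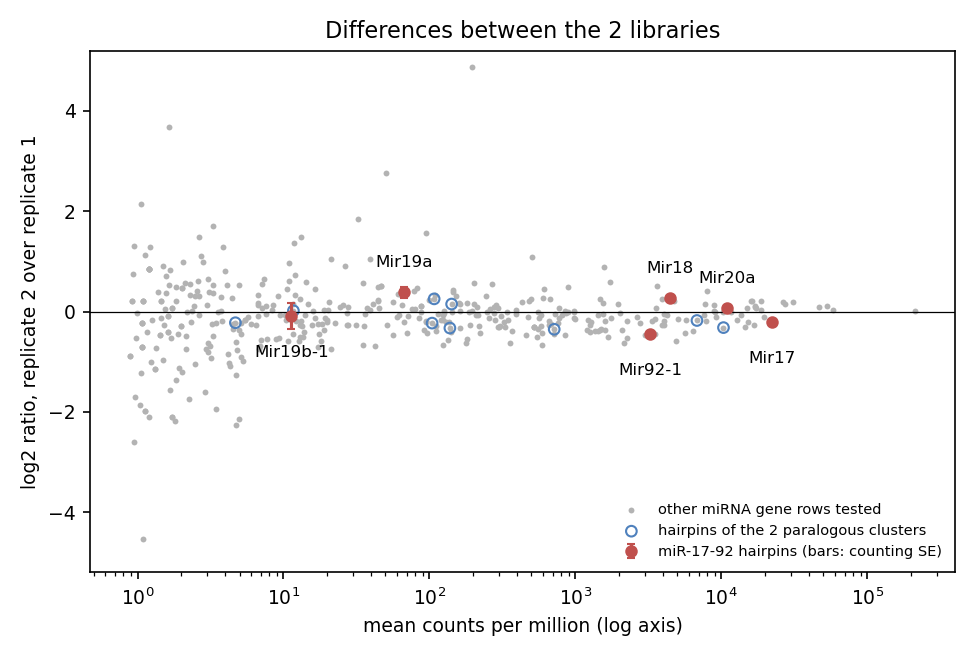
Log2 ratio of replicate 2 over replicate 1 against mean CPM (log axis) for the 440 rows tested, with hairpins of the Mir17hg cluster in red (bars, counting SE) and hairpins of the paralogous clusters as open circles. The red points lie between -0.44 and 0.39, among the other rows of their level.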

How the data were processed

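The authors deposited raw counts per gene for each library, without a header; the text deposited with them gives mm10 as the build and GENCODE M4 as the annotation, and the labels give a size range below 30. The aligner, the counter and any molecular identifiers were not given in the sources used here. The column of sense-strand counts was used, without the 4 tally rows; the members had 0 counts on the other strand. Rows were named from GENCODE M21 by versionless identifier (1894 of 1973 matched).

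CPM, SDs, Clopper-Pearson intervals and exact binomial tests (SciPy 1.17.1) were computed here, with Benjamini-Hochberg adjustment over all rows with 10 or more counts. The test was checked on counts simulated with counting error alone, so that check does not cover spread between libraries. Ratios had 0.5 added to each count. Dispersion and its exact test came from edgeR 4.0.16 with TMM, and no quasi-likelihood test was run, 1 group having no contrast. DESeq2 1.42.0 size factors were an alternative.

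The members, lists and tests were chosen with earlier results of these data known. Named genes were the members, the paralogous clusters, rows sharing a guide seed, each member's neighbours in rank, and Mir122.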

Additional observations from a re-analysis of the deposited data

How the results depend on the processing

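The cluster's share of the counts, 4.09%, was 3.76% with counts irrespective of strand, 5.21% with Mir122 left out of the total and 1.72% of all tallied reads; these differ because the denominator changes. With either replicate left out it ran from 3.96% to 4.23%. The number of members that differed between the libraries, 5, was 0 with edgeR's exact test (3 rows of 440 called, 23 at an unadjusted p under 0.05) and 5 with counts irrespective of strand, TMM scaling, DESeq2 size factors, the total without Mir122 and filters of 1 or 30 counts. A pseudocount of 1 enters the log2 ratios but not the binomial test. Under these alternatives and edgeR the log2 ratio of replicate 2 over replicate 1 ran from -0.20 to -0.12 for Mir17. It ran from 0.27 to 0.35 for Mir18, from 0.39 to 0.47 for Mir19a and from 0.06 to 0.15 for Mir20a. For Mir19b-1 it ran from -0.08 to -0.00, and for Mir92-1 from -0.44 to -0.36. No direction turned, but the count filters cannot change a log2 ratio. Counts irrespective of strand change only the library totals for these members. The alternatives run for Mir17's share of the member sum and for the seed family shares say nothing about their stability: leaving out 1 of 2 libraries always moves a mean by less than 1 SD, and the members have no counts on the other strand. Without replicate 1 Mir17's share was 52.3%, and without replicate 2 it was 56.2%. No paired analysis was possible because there is 1 group. Depth limits Mir19b-1 most, at 56 and 69 counts in replicates 2 and 1.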
